A study of Mus musculus with 20 samples.

Results

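The transcripts of 9 genes of the BCL2 family were followed through 20 RNA-Seq libraries of mouse retina. They were the rows for Bax (NCBI gene 12028), Bak1 (12018), Bid (12122), Bbc3 (170770), Pmaip1 (58801), Bcl2l11 (12125), Bcl2 (12043), Bcl2l1 (12048) and Mcl1 (17210), picked by symbol from a fixed list of names and not by their values, out of 19716 genes listed in at least 1 of the deposited tables. Each of the 9 was listed in both experiments, and each passed the filter on low values in both.

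BCL2 family proteins decide at the outer mitochondrial membrane whether a stressed cell dies by apoptosis. BAX and BAK form the pore that lets cytochrome c out. The pro-survival proteins BCL-2, BCL-xL (Bcl2l1) and MCL-1 hold them in check, and the BH3-only proteins BID, PUMA (Bbc3), NOXA (Pmaip1) and BIM (Bcl2l11) relieve that restraint or activate the pore directly. In the retina, Bax is known for its part in the death of ganglion cells after optic nerve injury, and PUMA, NOXA and BIM are known targets of stress pathways that include p53 and the unfolded protein response, of which ATF6 is 1 sensor.

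There were 2 experiments of 10 libraries, with 5 libraries in each of the 4 groups. In the first, Atf6+/+ and Atf6-/- mice on a C57BL/6J background, of both sexes, underwent oxygen-induced retinopathy (OIR), in which pups breathe 75% oxygen from postnatal day (P) 7 to P12 and then room air, and retinas were collected at P17. The knockout allele carries a premature stop codon, so transcript from the locus can remain. In the second, wild-type mice at P30 received 1 µL into the vitreous of both eyes, either saline with vehicle or Ceapin-A7 at 10 µM, a small molecule that holds ATF6 in the endoplasmic reticulum, and retinas were collected 24 h later. The study's methods give the C57BL/6J background and both sexes for the P30 mice as well. Both OIR groups shared the oxygen exposure, and both P30 groups shared the injection. The vehicle may have differed between the P30 groups, since the study's methods put DMSO at 0.01% in the Ceapin-A7 solution and at 0.05% in the saline, while the labels give 0.05% to 0.1% of vehicle for both. No room-air group of OIR age and no uninjected eye were analysed here. Every library was whole retina, so fewer cells of a type and less RNA per cell cannot be told apart. The labels do not tie libraries to litters or single animals, so p-values measure the spread between these libraries, which may be partly technical.

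The deposited values are FPKM (fragments per kilobase of transcript, scaled to the library's total), which is per length, so that levels of different genes may be set side by side. The number of fragments per library is not in the tables. From the steps between low values, relative depth was 1.0 in every library except Ceapin-A7-treated replicate 3, at 0.714. Summed FPKM ran from 410599 to 456250 per library. Atf6 itself was listed at a mean of 14.9 FPKM in Atf6+/+ OIR and 15.2 in Atf6-/- OIR (adjusted p = 0.827), so the transcript level does not check the knockout labels. Rod markers, 8 genes of 8, were present in every library. Summed lens markers ranged from 5.83 to 489 FPKM in OIR and from 7.86 to 8704 FPKM at P30, and summed erythroid markers from 379.6 to 2505 FPKM in OIR and from 142 to 371 FPKM at P30. Summed ganglion cell markers ranged from 654 to 753 FPKM in OIR and from 451 to 605 FPKM at P30, and summed pigment epithelium markers from 17.4 to 105 FPKM in Atf6+/+ OIR, from 65.1 to 293 FPKM in Atf6-/- OIR and from 94.0 to 238 FPKM at P30. Saline-treated replicates 4 and 5 stood apart, with summed rod markers of 14588 and 13671 FPKM against 18512 to 20620.2 FPKM in the other saline-treated libraries and 18874 to 20191 FPKM in the Ceapin-A7-treated ones. Values after injection that turn on these libraries are given also without them, where such a fit was made.

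No member changed with Atf6 genotype or with Ceapin-A7 at an adjusted p under 0.05. Bax, Bcl2l1 and Mcl1 were the most abundant members in every group, at group means of 31.3 to 38.8 FPKM. Bbc3 in OIR and Mcl1 after injection were the members with an unadjusted p of 0.05 or less in limma. That is 11.1% of the 9 in each experiment, near the 12.7% and 10.4% of all genes tested. Bbc3, a BH3-only member, was lower with Atf6 loss, and Mcl1, a pro-survival one, was lower with ATF6 inhibition. Bbc3 had no such p after correction for GC content, nor Mcl1 without saline-treated replicates 4 and 5. Each is described below with what moved alongside it.

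**Figure D1:**
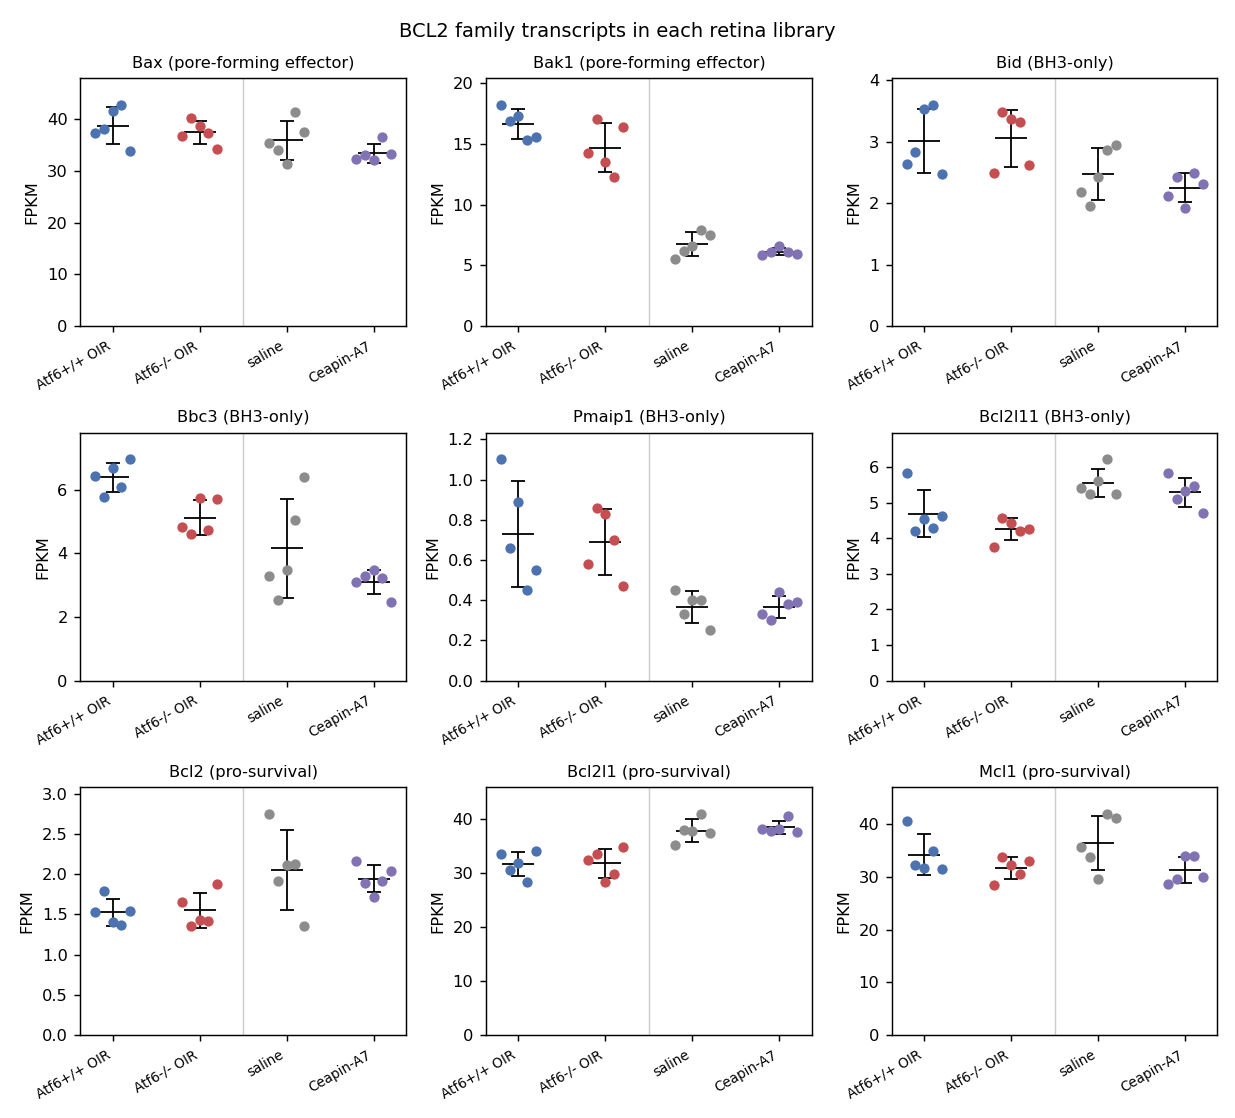
Each panel plots 1 BCL2 family gene, with FPKM on the vertical axis from 0 and the 4 groups along the horizontal axis; points are the 5 libraries of a group from replicate 1 at the left to replicate 5 at the right, and the long dash with its bar is the mean ± SD. Bak1 sat between 12.28 and 18.23 FPKM in the OIR libraries and between 5.50 and 7.94 FPKM in the P30 libraries, while Bax, Bcl2l1 and Mcl1 sat between 28.33 and 42.81 FPKM over all groups.

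Bbc3 codes for PUMA, a BH3-only protein that binds all pro-survival members. Because the study turns on a transcription factor, ATF6, and because Bbc3 was the member with the smallest p in OIR, its start-site windows were read from RefSeq (GRCm38.p6), from 250 bases before to 50 after each annotated start. Windows were found for 8 of the 9 members, 13 in all, and 3 of them belong to Bbc3, all on the plus strand of chromosome 7. The first and the last of these are printed 5′ to 3′, with capitals marking CCACG, the 3′ end of the endoplasmic reticulum stress response element to which ATF6 is recruited, and CCAAT, its 5′ end, on either strand (CGTGG and ATTGG are their reverse complements).
Bbc3 chr7:16309333-16309632 (+): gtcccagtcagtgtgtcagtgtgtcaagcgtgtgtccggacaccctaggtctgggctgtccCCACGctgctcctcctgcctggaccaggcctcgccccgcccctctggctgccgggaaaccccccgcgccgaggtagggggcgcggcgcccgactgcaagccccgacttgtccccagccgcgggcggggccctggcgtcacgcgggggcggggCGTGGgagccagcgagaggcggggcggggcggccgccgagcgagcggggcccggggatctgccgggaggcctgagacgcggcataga
Bbc3 chr7:16310181-16310480 (+): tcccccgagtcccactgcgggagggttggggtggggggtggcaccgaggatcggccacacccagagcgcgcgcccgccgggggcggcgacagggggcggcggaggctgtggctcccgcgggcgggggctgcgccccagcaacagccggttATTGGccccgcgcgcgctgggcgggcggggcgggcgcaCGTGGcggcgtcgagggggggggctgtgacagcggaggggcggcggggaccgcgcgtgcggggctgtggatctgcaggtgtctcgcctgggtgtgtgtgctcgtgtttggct
GC content was 76.0% in the first of these windows and 78.0% in the last, against a median of 52.7% over 32851 mouse promoter windows of the same length, and they held 34 and 39 CpG, against a median of 7. CCACG was found in 6 of the 13 member windows, those of Bax, Bbc3, Bcl2l1 and Bcl2l11, and in 32.8% of all windows. CCAAT was found in 3 of the 13, those of Bbc3 and Bcl2l11, and in 37.4% of all. The complete element, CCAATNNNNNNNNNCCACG, was in none of the 13 and in 0.119% of all windows. TGACGTG, the core of an ATF6 binding site, was in 0 of the 13 and in 2.01% of all, and TGCATCA, a core bound by ATF4 with C/EBP proteins, was in 0 of the 13 and in 3.15% of all. All 5 motifs were searched on both strands, and CCACG and CCAAT were counted also where they lie within the longer element.

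In OIR, the question was whether loss of Atf6 altered these transcripts at the peak of neovascular growth. None of the 9 members passed an adjusted p under 0.05 in limma, which 0.0318% of the 15704 genes tested did. With an unadjusted p of at most 0.05 there was 1 member of 9, Bbc3, lower in Atf6-/-, where 12.7% of all genes lay, 5.81% of them lower and 6.94% higher. That split of all genes depends on the scaling, with 54.4% of them higher in Atf6-/- after median-of-ratios rescaling and 30.5% with FPKM as deposited, while the count of members was the same. The median log2 fold change (log2FC, Atf6-/- over Atf6+/+, on the log2(FPKM + 0.1) scale) was -0.03 over the 9 members, with 6 lower and 3 higher, against 0.00 over all genes tested.

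Of the pore-forming effectors, Bax was at 37.43, 38.25, 41.62, 42.81 and 33.82 FPKM in the 5 replicates of Atf6+/+ OIR, in order, and at 36.87, 40.33, 38.69, 37.34 and 34.22 FPKM in Atf6-/- OIR. The groups overlapped throughout, with the highest value in an Atf6+/+ library and the lowest in another. The log2FC was -0.03 (SE 0.06, 95% interval -0.16 to 0.10, limma adjusted p = 0.829), an interval of -10.4% to 7.26%. Bak1 was at 18.23, 16.91, 17.35, 15.33 and 15.55 FPKM in Atf6+/+ OIR and at 14.30, 17.11, 13.49, 12.28 and 16.39 FPKM in Atf6-/- OIR. Here 3 of the 5 Atf6-/- libraries lay below all Atf6+/+ libraries, and replicates 2 and 5 lay among them. The Bak1 log2FC of -0.17 (SE 0.10, 95% interval -0.39 to 0.05, limma adjusted p = 0.458) did not pass the test. It had an unadjusted p of 0.0338 in limma with Atf6-/- replicate 5 left out, at a log2FC of -0.23. In that setting 4011 of 15718 genes had an unadjusted p of 0.05 or less.

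Among the BH3-only members, Bbc3 was at 6.43, 5.78, 6.68, 6.08 and 6.95 FPKM in Atf6+/+ OIR (6.38 ± 0.466, SD, n = 5 libraries) and at 4.82, 4.61, 5.73, 4.74 and 5.70 FPKM in Atf6-/- OIR (5.12 ± 0.548, SD, n = 5 libraries). The groups did not overlap as deposited, which held for 1.52% of all genes tested, but the highest Atf6-/- library lay only 0.05 FPKM below the lowest Atf6+/+ library, and after rescaling 4 of the 5 Atf6-/- libraries lay below all Atf6+/+ ones. The log2FC was -0.30 (SE 0.10, 95% interval -0.51 to -0.09), a change of -18.7%, with an unadjusted p of 0.00912 and an adjusted p of 0.358 in limma. On the rescaled values a two-sided exact permutation test returned p = 0.0317, where the smallest p possible is 0.00794. With limma's array weights, which count some libraries less, Bbc3 had an adjusted p of 0.0324 at a log2FC of -0.32, beside 2769 genes of all those tested.

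Base composition moved with this result. The Bbc3 transcript had the highest GC content of the members, 68.6%, at percentile 99.9 of the genes tested, whose median was 51.0%. Bax, at 58.4%, and Bak1, at 57.6%, lay at percentiles 90.0 and 86.9, and the other members between 5.65 and 72.2. Across the genes tested the log2FC had a Spearman correlation of -0.46 with transcript GC content, a description over genes that share libraries. A library's own GC trend, the Spearman correlation of its deviation from the 10-library mean with GC content, was 0.381, 0.377, 0.349, -0.305 and 0.309 in Atf6+/+ OIR and -0.319, -0.150, -0.422, -0.543 and 0.406 in Atf6-/- OIR. Thus Atf6+/+ replicate 4 and Atf6-/- replicate 5 each had a trend of the sign that prevailed in the other genotype, and their Bbc3 levels were 6.08 and 5.70 FPKM. After a lowess correction of each library for GC content the Bbc3 log2FC was -0.06 (SE 0.11), with an unadjusted p of 0.572, and no member then had a p of 0.05 or less. Few genes have a GC content as high as that of Bbc3, so the correction is least sure there, and the part of GC content in the result was not tested further.

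**Figure D2:**
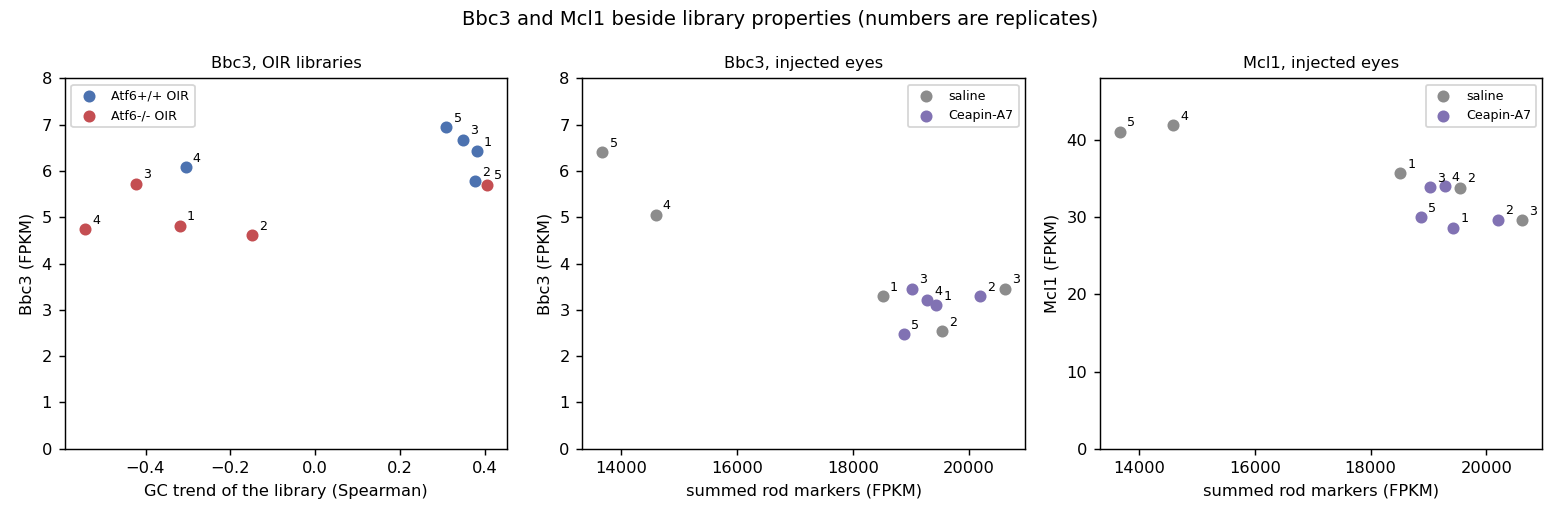
The left panel plots Bbc3 (FPKM, from 0) against the GC trend of each of the 10 OIR libraries, a Spearman correlation with no unit, and the other panels plot Bbc3 and Mcl1 (FPKM, from 0) against summed rod markers (FPKM) in the 10 libraries from injected eyes; each point is a library and its number is the replicate. Atf6+/+ replicate 4, at a GC trend of -0.305, and Atf6-/- replicate 5, at 0.406, lie on the side of the other genotype, and saline-treated replicates 4 and 5 hold the lowest rod sums, the 2 highest Bbc3 values and the 2 highest Mcl1 values.

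The other BH3-only members showed no such separation. Bcl2l11, which codes for BIM, a direct activator of the pore, was at 5.83, 4.2, 4.54, 4.28 and 4.62 FPKM in Atf6+/+ OIR and at 3.77, 4.58, 4.44, 4.21 and 4.27 FPKM in Atf6-/- OIR. One Atf6+/+ library was high and 1 Atf6-/- library low, and the rest overlapped. The log2FC was -0.11 (SE 0.10, 95% interval -0.34 to 0.11, limma adjusted p = 0.596), and it was -0.03 without Atf6+/+ replicate 1, the high library. Bid, which links death receptors to the mitochondrion once caspase 8 has cut it, ranged from 2.47 to 3.60 FPKM in Atf6+/+ OIR and from 2.50 to 3.49 FPKM in Atf6-/- OIR, with a log2FC of 0.04 (95% interval -0.23 to 0.31, limma adjusted p = 0.886). Pmaip1, which codes for NOXA, a selective antagonist of MCL-1, ranged from 0.45 to 1.10 FPKM and from 0.47 to 0.86 FPKM in the same order. Its log2FC was -0.03 with a 95% interval of -0.52 to 0.45 (limma adjusted p = 0.955), the widest of the 9, which allows a change of -30.1% to 37.1%.

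The pro-survival members had overlapping values in the 2 genotypes. Bcl2l1, which codes for BCL-xL, the main pro-survival protein of mature neurons, was at 33.45, 30.53, 31.83, 28.33 and 33.96 FPKM in Atf6+/+ OIR and at 32.30, 33.54, 28.37, 29.72 and 34.81 FPKM in Atf6-/- OIR. Its ranges coincided, and the log2FC was 0.02 (SE 0.09, 95% interval -0.16 to 0.21, limma adjusted p = 0.909). Mcl1, whose short-lived protein guards BAK in particular, was at 40.69, 32.22, 31.66, 34.96 and 31.53 FPKM in Atf6+/+ OIR and at 28.56, 33.76, 32.22, 30.65 and 33.09 FPKM in Atf6-/- OIR. Replicate 1 was the highest of the first group and the lowest of the other, and the log2FC of -0.09 (95% interval -0.27 to 0.09, limma adjusted p = 0.604) became -0.02 without Atf6+/+ replicate 1. Bcl2, the founding member of the family, ranged from 1.37 to 1.79 FPKM in Atf6+/+ OIR and from 1.36 to 1.88 FPKM in Atf6-/- OIR, with a log2FC of 0.03 (95% interval -0.25 to 0.32, limma adjusted p = 0.909).

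**Figure D3:**
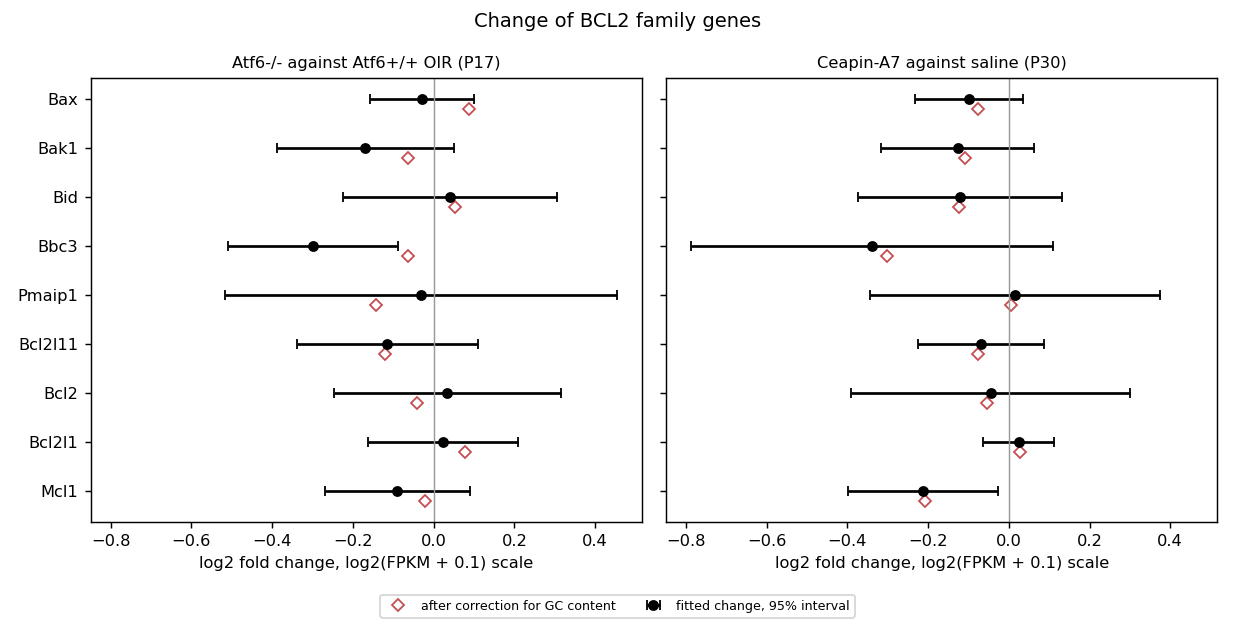
Black points are fitted log2 fold changes on the log2(FPKM + 0.1) scale with 95% intervals for the 9 members, n = 5 libraries per group, and open red diamonds are the changes after correction for GC content. In OIR the Bbc3 interval of -0.51 to -0.09 leaves out 0 while its corrected value is -0.06, and after Ceapin-A7 the Mcl1 interval of -0.40 to -0.03 leaves out 0 and its corrected value is -0.21.

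The injected eyes asked the same of pharmacological inhibition, in retinas without OIR. None of the 9 members passed an adjusted p under 0.05 in limma, as for 0% of the 15408 genes tested. With an unadjusted p of at most 0.05 there was again 1 member of 9, Mcl1, lower after Ceapin-A7, beside 10.4% of all genes, 5.31% lower and 5.04% higher. Of these genes 48.7% were higher after median-of-ratios rescaling and 26.8% after rescaling to an equal sum, which shifted the median log2FC of all genes by less than 0.1. No member had deposited values that did not overlap between the groups, which held for 1.34% of all genes. The median log2FC of the 9 members (Ceapin-A7 over saline) was -0.10, with 7 lower and 2 higher, against 0.00 over all genes. After rescaling to an equal sum it was -0.14 with 9 of 9 lower, against -0.04 over all genes, with 9709 of the 15408 lower. Without saline-treated replicates 4 and 5 the median of the members was -0.02.

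Mcl1 was at 35.70, 33.85, 29.63, 41.96 and 41.10 FPKM in saline-treated replicates 1 to 5 (36.4 ± 5.14, SD, n = 5 libraries) and at 28.68, 29.70, 33.92, 34.00 and 30.03 FPKM in Ceapin-A7-treated ones (31.3 ± 2.51, SD, n = 5 libraries). The groups overlapped, and the 2 highest values were saline-treated replicates 4 and 5. The log2FC was -0.21 (SE 0.08, 95% interval -0.40 to -0.03), a change of -13.7%, with an unadjusted p of 0.0284 and an adjusted p of 0.472 in limma, and a two-sided exact permutation test returned p = 0.0556. The unadjusted p was above 0.05 when saline-treated replicate 4 or 5 was left out (0.0723 and 0.0709) and likewise without Ceapin-A7-treated replicate 1, 2 or 5 (0.0670, 0.0605 and 0.0595). Without both saline-treated replicates the log2FC was -0.10 with an unadjusted p of 0.222.

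Those libraries also held the highest saline-treated values of other members. Bbc3 was at 3.29, 2.54, 3.46, 5.06 and 6.41 FPKM in saline-treated retinas and at 3.10, 3.29, 3.46, 3.21 and 2.48 FPKM in Ceapin-A7-treated retinas. Saline-treated replicates 1 to 3 lay within the Ceapin-A7 range, and replicates 4 and 5 above it. The Bbc3 log2FC of -0.34 (SE 0.20, 95% interval -0.79 to 0.11, limma adjusted p = 0.544) became -0.01 without both. Bax, Bak1, Bid, Bbc3 and Mcl1, 5 of the 9 members, had their 2 highest saline-treated values in replicates 4 and 5, as did 24.7% of all genes tested, a feature chosen after the values were seen. Summed Müller glia markers, 7 genes, were also lowest there, at 1527 and 1539 FPKM against 1726 to 2139 FPKM in the other saline-treated libraries. Outside the members, the next genes were picked after the values were seen. The p53 target Cdkn1a was at 3.18, 3.61, 3.60, 15.57 and 22.06 FPKM in saline-treated replicates 1 to 5. Ddit3 was at 34.74, 45.56, 46.35, 73.00 and 87.26 FPKM. Ceapin-A7-treated libraries held 2.99 to 4.55 FPKM of Cdkn1a and 39.31 to 44.47 FPKM of Ddit3. Foxo1 was lowest in saline-treated replicates 4 and 5, at 5.77 and 5.01 FPKM. What set these 2 libraries apart, and its part in the differences, was not tested. Ddx3y, a Y-linked gene, was above 10 FPKM in 1 saline-treated library, replicate 5, and in 3 Ceapin-A7-treated libraries. With its level as a covariate Bbc3 had an unadjusted p of 0.0174 in limma at a log2FC of -0.53. In that setting 2037 of 15408 genes had an unadjusted p of 0.05 or less. Saline-treated replicate 5 also held the highest Bbc3 value, 6.41 FPKM, and the covariate was not fitted without it.

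For the effectors, Bax was at 35.49, 34.04, 31.43, 41.45 and 37.49 FPKM in saline-treated and at 32.28, 33.03, 32.18, 36.58 and 33.29 FPKM in Ceapin-A7-treated retinas. Every Ceapin-A7-treated library lay within the saline-treated range, and the log2FC was -0.10 (SE 0.06, 95% interval -0.23 to 0.03, limma adjusted p = 0.549). Bak1 was at 5.50, 6.21, 6.59, 7.94 and 7.55 FPKM in saline-treated and at 5.89, 6.09, 6.63, 6.10 and 5.96 FPKM in Ceapin-A7-treated retinas. The treated libraries spread less, with a log2FC of -0.13 (SE 0.09, 95% interval -0.32 to 0.06, limma adjusted p = 0.589). Leaving out saline-treated replicate 1 for Bak1, 2 for Bbc3 or 3 for Bax, the lowest of the group in each case, brought the unadjusted p to 0.0224, 0.0229 and 0.0243 in limma. All genes with an unadjusted p of 0.05 or less then numbered 1590, 2529 and 2224, against 1595 with every library. Without saline-treated replicates 4 and 5 the log2FC of Bax was -0.02 and that of Bak1 -0.0063.

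The remaining members had intervals that took in 0. Bcl2l1 was at 35.10, 37.97, 37.68, 40.91 and 37.43 FPKM in saline-treated and at 38.15, 37.80, 38.18, 40.53 and 37.56 FPKM in Ceapin-A7-treated retinas. It had the narrowest interval of the 9, a log2FC of 0.03 (SE 0.04, 95% interval -0.06 to 0.11, limma adjusted p = 0.830), which allows a change of -4.26% to 8.14%. Bcl2l11 ranged from 5.25 to 6.22 FPKM and from 4.72 to 5.85 FPKM, with a log2FC of -0.07 (95% interval -0.22 to 0.09, limma adjusted p = 0.720). Bid ranged from 1.96 to 2.95 FPKM and from 1.93 to 2.49 FPKM, with a log2FC of -0.12 (95% interval -0.37 to 0.13, limma adjusted p = 0.6997). Pmaip1 ranged from 0.25 to 0.45 FPKM and from 0.30 to 0.44 FPKM, and its log2FC was 0.02 (95% interval -0.35 to 0.38, limma adjusted p = 0.978). Bcl2 ranged more widely after saline, from 1.35 to 2.75 FPKM, than after Ceapin-A7, from 1.72 to 2.17 FPKM, and its log2FC was -0.04 (95% interval -0.39 to 0.30, limma adjusted p = 0.932). Of these, Bid turned from -0.12 to 0.02 without saline-treated replicates 4 and 5, and Pmaip1 from 0.02 to -0.09.

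Whether Atf6 loss in OIR and Ceapin-A7 acted differently on a member was tested as the difference of the 2 log2FC in a joint fit of 15628 genes, of which 9.19% had an unadjusted p of 0.05 or less and 0.032% an adjusted p under 0.05. No member of the 9 had either. For Bbc3 the difference (OIR change minus Ceapin-A7 change) was 0.04 with a 95% interval of -0.45 to 0.53 (limma adjusted p = 0.967), and for Mcl1 it was 0.12 with an interval of -0.13 to 0.38 (limma adjusted p = 0.765). These intervals are wide against the changes themselves. Bcl2l1 had an interval of -0.19 to 0.19.

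Levels of the members were ordered in much the same way in the 4 groups. In Atf6+/+ OIR the order by mean FPKM was Bax, Mcl1, Bcl2l1, Bak1, Bbc3, Bcl2l11, Bid, Bcl2 and Pmaip1, and in Atf6-/- OIR Bcl2l1 stood before Mcl1. The ranges of neighbours among the first 3 overlapped in both OIR groups, Bbc3 overlapped with Bcl2l11 in Atf6+/+ but not in Atf6-/-, and the other neighbours did not overlap. After saline the order was Bcl2l1, Mcl1, Bax, Bak1, Bcl2l11, Bbc3, Bid, Bcl2 and Pmaip1, and the neighbours whose ranges were separate were Bax and Bak1, and Bcl2 and Pmaip1. After Ceapin-A7 Bax stood before Mcl1, and neighbours overlapped between Bax and Mcl1, Bbc3 and Bid, and Bid and Bcl2. Pmaip1 was lowest in every group, at group means of 0.366 to 0.730 FPKM.

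Sums by role were taken over the members alone. They showed how little of the summed transcript of Bcl2, Bcl2l1 and Mcl1 was Bcl2 itself. Bcl2 made up 2.27% ± 0.296 (SD, n = 5 libraries) of the summed FPKM of Bcl2, Bcl2l1 and Mcl1 in Atf6+/+ OIR, 2.39% ± 0.294 in Atf6-/- OIR, 2.72% ± 0.753 after saline and 2.73% ± 0.326 after Ceapin-A7. The ratio of pro-survival to effector FPKM was 1.22 ± 0.129 in Atf6+/+ OIR and 1.25 ± 0.0776 in Atf6-/- OIR, and 1.79 ± 0.0451 after saline and 1.81 ± 0.0535 after Ceapin-A7 (SD, n = 5 libraries each). Within each experiment the ranges of this ratio overlapped. Shares and ratios depend on the list of members. Bcl2l2, a pro-survival relative outside it, had means of 38.8 FPKM in both OIR groups, 69.4 after saline and 69.55 after Ceapin-A7. Bok, a relative of Bax and Bak1, had means of 5.58 and 4.71 FPKM in OIR and 6.20 and 6.75 at P30. Neither was counted in the sums.

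Between the experiments, Bak1 and Bcl2l1 were the members whose 10 OIR libraries did not overlap with the 10 P30 libraries. That held for 28% of 15205 genes, 13.2% higher in OIR, so it does not set these members apart. The Bak1 mean was 16.7 ± 1.23 FPKM in Atf6+/+ OIR and 14.7 ± 2.01 in Atf6-/- OIR, against 6.76 ± 0.992 after saline and 6.13 ± 0.291 after Ceapin-A7 (SD, n = 5 libraries each), and the lowest OIR library, at 12.28 FPKM, was above the highest P30 library, at 7.94 FPKM. The Bcl2l1 values lay lower in OIR, from 28.33 to 34.81 FPKM against 35.10 to 40.91 FPKM. Pmaip1, at means of 0.730 and 0.688 FPKM in OIR and 0.366 and 0.368 FPKM at P30, touched at 0.45 FPKM. Bax had means of 38.8, 37.5, 36.0 and 33.5 FPKM in the same order, so that the Bax to Bak1 ratio was 2.34 and 2.59 in OIR and 5.38 and 5.47 at P30. Summed markers of microglia and macrophages, 9 genes, ran from 61.4 to 106 FPKM in the OIR libraries and from 26.3 to 41.0 FPKM at P30, and those of endothelial cells, 8 genes, from 93.9 to 161 FPKM and from 61.2 to 88.8 FPKM. Their part in the Bak1 level was not tested. Age, oxygen exposure and injection differ together between these tables, which were made separately, so their parts cannot be told apart and no test was made.

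Around the members, 71 other genes of the apoptosis pathway in 8 lists were examined. In OIR 66 of them could be tested, 0 passed an adjusted p under 0.05, and 10 had an unadjusted p of 0.05 or less, 8 lower and 2 higher in Atf6-/-. That is 15.2% of them, near the 12.7% of all genes with both directions counted, of which 5.81% were lower and 6.94% higher. Their median log2FC was -0.11, with 47 lower and 19 higher, against 0.00 over all genes. After Ceapin-A7 68 could be tested, 0 passed the adjusted threshold, 9 had an unadjusted p of 0.05 or less, all 9 lower, and the median log2FC was -0.11. Those 9 are 13.2%, near the 10.4% of all genes with both directions counted, but of all genes only 5.31% were lower and 5.04% were higher. The counts of single lists that follow are of 4 to 12 genes each and are to be read against the same 12.7% in OIR and 10.4% after Ceapin-A7. Without saline-treated replicates 4 and 5, 4 of 67 pathway genes had an unadjusted p of 0.05 or less, with a median log2FC of -0.01. Over all genes it was then 769 of 15378, so the count fell there as well.

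**Figure D4:**
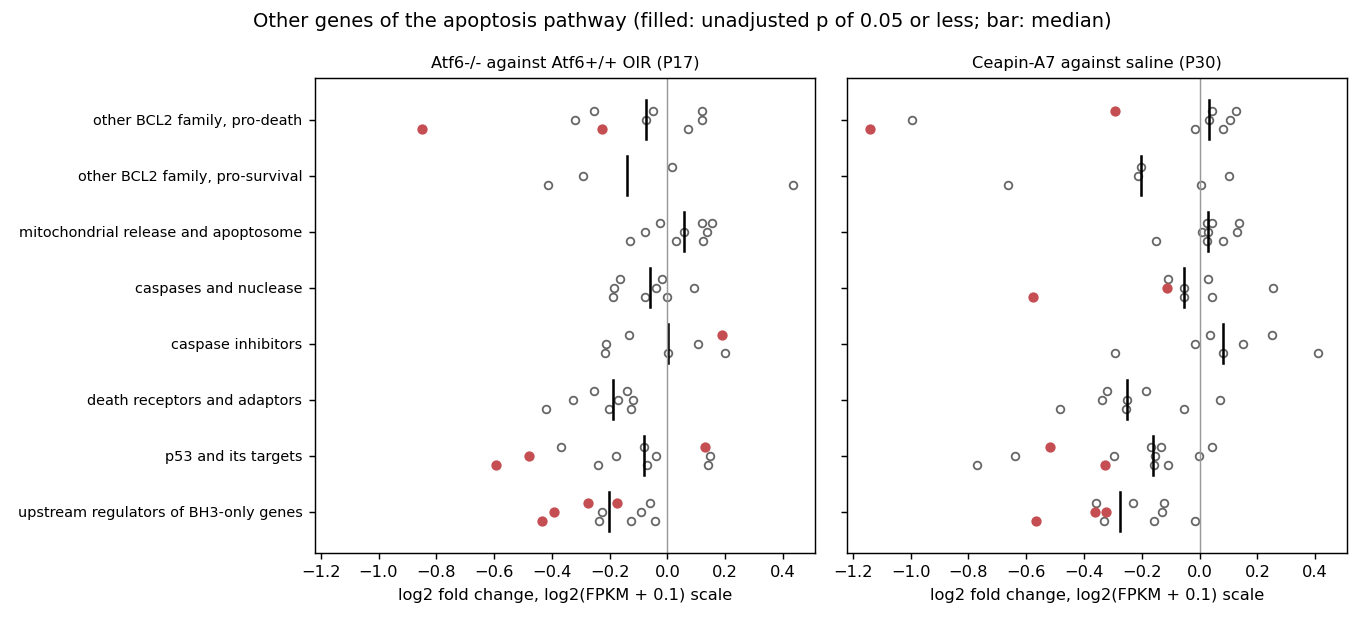
Each circle is 1 apoptosis gene placed by its log2 fold change on the log2(FPKM + 0.1) scale, in rows for the 8 lists, with OIR at the left and injected eyes at the right; filled circles have an unadjusted p of 0.05 or less and black bars are list medians. All 10 upstream regulators of BH3-only genes lie below 0 in both panels, with medians of -0.20 and -0.28. Of all genes tested, 7741 of 15704 were lower in OIR and 7652 of 15408 after Ceapin-A7. In settings not drawn, 8 of the 10 were lower in OIR after GC correction. After Ceapin-A7 it was 7 of 10, with a median of -0.05, without saline-treated replicates 4 and 5.

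The regulators that lie upstream of BH3-only genes were the list nearest to Bbc3. Over all genes tested, 7741 of 15704 were lower in OIR and 7652 of 15408 after Ceapin-A7. In OIR 10 of 10 were lower in Atf6-/-, with a median log2FC of -0.20 and 4 at an unadjusted p of 0.05 or less, and the 10 were lower also with FPKM as deposited, with an equal sum and after quantile normalization, while after GC correction 8 were, with a median of -0.12 and 3 such genes. Without Atf6+/+ replicate 1 the count was 9 of 10, with a median of -0.13 and 2 such genes, and without Atf6-/- replicate 4 it was 9 of 10, also with 2. Without Atf6-/- replicate 2 or 5 all 10 were lower, with 2 and 7 such genes. The number of such genes over all genes moved too, from 2002 to 1663 after GC correction. It was 1301 without Atf6+/+ replicate 1 and 1092 without Atf6-/- replicate 4. Without Atf6-/- replicate 2 or 5 it was 1885 and 4011. Ddit3, which codes for CHOP, a stress-induced factor able to raise Bim and Puma transcription, was at 69.64, 54.82, 61.31, 69.07 and 58.43 FPKM in Atf6+/+ OIR and at 49.87, 54.39, 52.70, 45.84 and 52.14 FPKM in Atf6-/- OIR. As deposited all Atf6-/- values lay below all Atf6+/+ values, by 0.43 FPKM at the nearest. The groups did not overlap for 1.52% of all genes, and after rescaling 4 of the 5 Atf6-/- values of Ddit3 lay below all Atf6+/+ ones. On the rescaled values the log2FC was -0.28 (SE 0.08, unadjusted p = 0.00372, limma adjusted p = 0.358). Jun, a stress-activated factor upstream of Bim and Puma in neurons, had a mean of 29.6 FPKM against 21.7 FPKM, a log2FC of -0.43 and an adjusted p of 0.362 in limma. After Ceapin-A7 10 of 10 were again lower, with a median of -0.28 and 3 at an unadjusted p of 0.05 or less, but without saline-treated replicates 4 and 5 it was 7 of 10 with a median of -0.05. Leaving out 1 library at a time gave 9 or 10 of 10 lower, with 1 to 6 at that unadjusted p, while 956 to 2529 of all genes had it. Rela, a subunit of NF-kappaB, was at 19.60, 16.49, 16.67, 26.37 and 24.91 FPKM after saline and at 14.41, 15.47, 15.73, 17.74 and 16.11 FPKM after Ceapin-A7. Its highest values were again saline-treated replicates 4 and 5, and the log2FC of -0.36 (unadjusted p = 0.0108, limma adjusted p = 0.472) became -0.16 without both (unadjusted p = 0.0501 in limma). Bcl6, a transcriptional repressor, had a log2FC of -0.32 (limma adjusted p = 0.475). Saline-treated replicate 4 was at 14.65 FPKM and the other saline-treated libraries at 7.49 to 10.45 FPKM, and without it the Bcl6 log2FC was -0.18. Its unadjusted p was above 0.05 without any 1 of 6 libraries, saline-treated replicates 1 and 4 and Ceapin-A7-treated replicates 1, 2, 4 and 5.

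Among p53 and its targets, 11 genes were tested in OIR and 3 had an unadjusted p of 0.05 or less, 2 lower and 1 higher. Gtse1, a p53-inducible cell cycle gene, had means of 0.722 and 0.438 FPKM and a log2FC of -0.59 (limma adjusted p = 0.358), and Mdm2, which codes for the ligase that degrades p53, had means of 24.9 and 26.9 FPKM and a log2FC of 0.13 (limma adjusted p = 0.366). The unadjusted p of Mdm2 was 0.0505 to 0.0806 without Atf6+/+ replicate 1, 2 or 5 or Atf6-/- replicate 1 or 3. After Ceapin-A7 2 of 12 did, both lower. They were Phlda3, at means of 7.85 and 5.30 FPKM and a log2FC of -0.52, and Sesn2, at means of 12.04 and 9.33 FPKM and a log2FC of -0.33 (limma adjusted p = 0.472 and 0.475). Both had their 2 highest saline-treated values in replicates 4 and 5, and without these the log2FC was -0.21 for Phlda3 and -0.08 for Sesn2, with unadjusted p of 0.193 and 0.326 in limma. Leaving out either of the 2 also took the unadjusted p of both genes above 0.05, as did Ceapin-A7-treated replicate 1 or 2 for both and 3 or 5 for Sesn2. The log2FC without saline-treated replicate 4 was -0.22 for Sesn2.

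Of the other pro-death relatives of the family, 2 of 9 tested had an unadjusted p of 0.05 or less in each experiment. Bik, a BH3-only gene, was low throughout, at means of 0.560 and 0.250 FPKM in Atf6+/+ and Atf6-/- OIR and of 0.528 and 0.198 FPKM after saline and Ceapin-A7. Its log2FC were -0.85 and -1.14 (limma adjusted p = 0.362 and 0.472), and the groups overlapped in both experiments. After Ceapin-A7 its log2FC was -0.95 without saline-treated replicates 4 and 5 (unadjusted p = 0.0797 in limma), and without replicate 4 alone the unadjusted p was 0.0607. Bok, a relative of Bax and Bak1, had means of 5.58 and 4.71 FPKM in OIR and a log2FC of -0.23 (limma adjusted p = 0.366). The genotypes were 0.03 FPKM apart as deposited and overlapped after rescaling, with 4 of 5 Atf6-/- libraries below all Atf6+/+ ones. Its unadjusted p was 0.0539 to 0.0813 without Atf6+/+ replicate 2 or 5 or Atf6-/- replicate 3 or 4. Bcl2l15 had a log2FC of -0.29 after Ceapin-A7 (limma adjusted p = 0.481), with an unadjusted p above 0.05 without any 1 of 7 libraries, all but saline-treated replicate 4 and Ceapin-A7-treated replicates 2 and 5. The other pro-survival relatives gave 0 of 4 tested in OIR and 0 of 5 after Ceapin-A7 at an unadjusted p of 0.05 or less.

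Downstream of the pore, mitochondrial release and apoptosome genes such as Apaf1 and Cycs gave 0 of 9 in both experiments, with medians of 0.06 in OIR and 0.03 after Ceapin-A7. Of the caspases and their nuclease, 0 of 8 had an unadjusted p of 0.05 or less in OIR and 2 of 8 after Ceapin-A7, both lower. Casp9, the apoptosome's caspase, was at means of 11.4 and 10.6 FPKM with a log2FC of -0.11, and Casp8, the initiator behind death receptors, was at means of 0.526 and 0.296 FPKM with a log2FC of -0.58 (limma adjusted p = 0.472 for each). Saline-treated replicate 1 was at 1.00 FPKM of Casp8 and the other saline-treated libraries at 0.32 to 0.51 FPKM, and without it the log2FC was -0.35 (unadjusted p = 0.0661 in limma). The unadjusted p of Casp8 was above 0.05 also without saline-treated replicate 5 or Ceapin-A7-treated replicate 1, 2, 3 or 4, and that of Casp9 without saline-treated replicate 1 or Ceapin-A7-treated replicate 2 or 3. Of 7 caspase inhibitors, 1 had an unadjusted p of 0.05 or less in OIR and 0 after Ceapin-A7. It was Birc6, which codes for a large ubiquitin ligase of the inhibitor of apoptosis family, at means of 11.97 and 13.5 FPKM, higher in Atf6-/- with a log2FC of 0.19 (limma adjusted p = 0.362). The death receptors and adaptors gave 0 of 8 tested in both experiments, and their medians were -0.19 and -0.25. Without saline-treated replicates 4 and 5 the second was -0.14.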

How the data were processed

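Whole mouse retinas were measured by bulk RNA-Seq, and groups and replicate numbers came from the sample labels. The authors sequenced stranded mRNA as paired-end reads of 100 bp, used HISAT2 (v2.0.4) to align them to GRCm39, and deposited FPKM per gene from RSEM (v1.2.18) to 2 decimals, which limits precision for Pmaip1 and other low genes. DESeq2 (v1.4.5) was the authors' tool for counts, and since FPKM were deposited, neither a count test nor a counting interval is given.

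FPKM of each experiment's 10 libraries were divided by median-of-ratios factors, and log2(FPKM + 0.1) was compared, where the mean FPKM exceeded 0.1, with limma 3.58.1 (eBayes with trend) in R 4.3.3. P-values were adjusted over all genes tested by the Benjamini-Hochberg method, and threshold counts use an adjusted p under 0.05 or an unadjusted p of 0.05 or less. Exact permutation tests were two-sided. The fit was also run on simulated data. Noise there was independent between genes, so trends shared by the genes of a library, such as that with GC content, were not covered. Transcript GC content came from GENCODE vM21 (GRCm38), with a value for 98.4% of genes tested in OIR and 98.6% at P30, and lowess used a span of 0.3. Start-site windows came from RefSeq GRCm38.p6.

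The members, the 8 pathway lists, the 8 marker lists and the tests were chosen with earlier results of these data known, and 1 gene of the pathway lists is not reported here. Named genes were the members, Atf6 and, per list and experiment, the 2 with the smallest unadjusted p of 0.05 or less. Other genes, such as Bcl2l2, Cdkn1a and Foxo1, were named after their levels were seen. Alternatives were other pseudocounts (1 and 0.01), filters, scalings, array weights, a fit of all 20 libraries, a replicate block, GC correction, Ddx3y as a covariate and leaving out libraries.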

Additional observations from a re-analysis of the deposited data

Results flagged for a closer look

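A library counted as far from the other 4 of its group when its gap to the nearest of them as a share of the group's range passed Dixon's 95% critical value. Among the 9 members in 4 groups, 36 such sets of 5 values were examined and 4 had one, where chance gives about 1 in 20. Bcl2l11 in Atf6+/+ OIR replicate 1 stood highest, at 5.83 FPKM against 4.62 FPKM for the next, a gap of 0.742 of the range. In Ceapin-A7-treated retinas, Bax in replicate 4 was at 36.58 FPKM with the next at 33.29 FPKM (0.748 of the range), Bak1 in replicate 3 was at 6.63 FPKM with the next at 6.10 FPKM (0.716), and Bcl2l1 in replicate 4 was at 40.53 FPKM with the next at 38.18 FPKM (0.791). Replicate 3 is the library with the lowest estimate of relative depth, 0.714, which is a coarse one.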

How the results depend on the processing

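The cause of the changes below was not tested. In OIR, array weights gave 2769 genes with an adjusted p under 0.05 (5 in the fit of the report), 5749 at an unadjusted p of 0.05 or less (2002), 1 member past the adjusted threshold (Bbc3, adjusted p = 0.0324 in limma) and 2 members (Bbc3 and Bak1) and 29 pathway genes at the unadjusted one. No filter on low values gave 9 genes, and a fit of all 20 libraries 11 genes and 0 members (Bbc3, unadjusted p = 0.0876). GC correction gave 0 members. After Ceapin-A7, the fit of all 20 libraries gave 1 gene past the adjusted threshold, and the Ddx3y covariate 2 members at the unadjusted one, beside 2037 genes (1595). Without saline-treated replicates 4 and 5 together, chosen after seeing the data, there were 769 genes (1595), 0 members and 4 pathway genes.

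Same-numbered libraries did not deviate together (correlations of -0.26 to 0.21 in OIR and -0.22 to 0.31 at P30, with 1 and 2 of 10 libraries closest to their own number), so the replicate number was not treated as a pairing. The labels do not tie libraries to litters, and these correlations cannot show whether any were shared. With a replicate block, 1969 genes in OIR and 1606 after Ceapin-A7 had an unadjusted p of 0.05 or less, with 1 member each. The replicate block with GC correction gave 0 members and 6 pathway genes in OIR and 1 member (Bax) for the difference between experiments.

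Leaving out 1 library at a time gave 5 to 9 genes past the adjusted threshold in OIR and 0 after Ceapin-A7, 0 members in both, 1092 to 4011 and 956 to 2529 genes at the unadjusted one, 6 to 21 and 4 to 19 pathway genes, and 1 to 2 and 0 to 2 members. Counts of all genes or of pathway genes moved by over 1.5 times without Atf6+/+ replicate 1 or 4 or Atf6-/- replicate 4 or 5 in OIR, and without saline-treated replicate 2 or 4 or Ceapin-A7-treated replicate 1, 2 or 4 at P30. Bbc3 ranged from -0.36 to -0.25 in OIR and from -0.49 to -0.17 after Ceapin-A7, and Mcl1 from -0.28 to -0.16 after Ceapin-A7. Bcl2l11 ranged from -0.16 to -0.029 in OIR. Signs turned for Bcl2 (-0.052 to 0.092), Bcl2l1 (-0.031 to 0.067), Bid (-0.018 to 0.11) and Pmaip1 (-0.18 to 0.12) in OIR, for Bcl2 (-0.19 to 0.067) and Pmaip1 (-0.089 to 0.081) after Ceapin-A7, and for the difference of Bbc3 (-0.12 to 0.19).

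Log2FC near 0 changed sign in other settings. In OIR, Bax was 0.0024 with array weights and 0.087 with GC correction, with or without the block. Pmaip1 was 0.032 after quantile normalization and 0.0090 with array weights. Bcl2 was -0.061 with array weights and -0.040 with GC correction, with or without the block. Bcl2l1 was -0.0017 at an equal sum (TPM) and -0.074 with array weights. After Ceapin-A7, Pmaip1 was -0.014 at an equal sum, -0.012 after quantile normalization, -0.068 with array weights and -0.090 without saline-treated replicates 4 and 5, Bid was 0.023 without those 2, Bcl2 was 0.072 with the Ddx3y covariate and Bcl2l1 was -0.014 at an equal sum. The difference of Bbc3 was -0.029 with array weights. The alternative of a mean FPKM above 1 gave no value for Pmaip1.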
